A study of Mus musculus with 12 samples.

Results

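Of the 49585 genes counted in the mouse adrenal cortex, 9 were examined here as a set. They encode alcohol dehydrogenases, enzymes of retinoid metabolism, or close relatives of these. They were *Adh1*, *Adh5*, *Adh7*, *Aldh1a1*, *Aldh1a2*, *Aldh1a7*, *Rdh10*, *Rdh11*, and *Dhrs3*. *Adh1* was selected on its measured rise in mice on a high-fat diet (HFD) over mice on a low-fat diet (LFD), so its values are a description and carry no test in any comparison. The mice were male C57BL/6J, aged 6 weeks when feeding began. 4 mice were fed the LFD (called a normal diet in the labels, 10% of energy as fat) and 4 a HFD (60% of energy as fat), each for 20 weeks. The other 4 received the HFD for the same time, with icosapent ethyl, a purified ethyl ester of the omega-3 fatty acid eicosapentaenoic acid, mixed into it for the last 10 weeks. Every mouse gave 1 RNA-seq library. The labels give all 12 mice the genotype Fads2-/-, whereas the study's methods describe wild-type mice, and *Fads2*, which encodes a fatty acid desaturase, was expressed at between 451.8 and 2182 CPM (read counts scaled to a common, TMM-normalized library size) in each of them.

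Retinol (vitamin A) is oxidised reversibly to retinaldehyde by alcohol dehydrogenases of the cytosol and by membrane-bound retinol dehydrogenases. Retinaldehyde dehydrogenases of the ALDH1A family then convert it irreversibly to retinoic acid, the ligand of the nuclear receptors RAR and RXR. CYP26 enzymes break retinoic acid down, and reductases such as DHRS3 return retinaldehyde to retinol. Alcohol dehydrogenases and ALDH1A enzymes also act on other alcohols and aldehydes, among them ethanol and the aldehydes that arise from lipid peroxidation. The adrenal cortex is a tissue in which ALDH1A1 is known to be abundant.

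The 3 alcohol dehydrogenase genes lie in 1 cluster on chromosome 3 of GRCm38, all on the plus strand, which spans 237.74 kb from *Adh7* (chr3:138217760-138233382) through *Adh1* (chr3:138260991-138290698) to *Adh5* (chr3:138443093-138455499). The 3 genes between *Adh1* and *Adh5* were almost silent, with at most 4 reads of *Adh6a*, 4 of *Adh6b*, and 6 of *Adh4* in any mouse. *Aldh1a1* (chr19:20492715-20643465, plus strand) and *Aldh1a7* (chr19:20692953-20727562, minus strand) are also neighbours, 49.487 kb apart, whereas *Aldh1a2* is on chromosome 9 (chr9:71215789-71296243, plus strand). The other members are spread over chromosomes 1, 12, and 4: *Rdh10* (chr1:16105774-16133734), *Rdh11* (chr12:79174337-79192293), and *Dhrs3* (chr4:144892827-144928209).

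The 250 bases before the transcription start are shown for *Aldh1a1* and *Aldh1a7*, because these neighbours are close copies of each other. The sequences are from RefSeq (GRCm38.p6), each 5′ to 3′ on the strand of its gene, and positions count back from the start. RefSeq lists 2 starts for *Aldh1a1*, and the window of the downstream start (chr19:20601718-20601967, plus strand) was chosen after its likeness to that of *Aldh1a7* (chr19:20727557-20727806, minus strand) was seen. Capitals mark the longest run of bases that both windows share.
Aldh1a1: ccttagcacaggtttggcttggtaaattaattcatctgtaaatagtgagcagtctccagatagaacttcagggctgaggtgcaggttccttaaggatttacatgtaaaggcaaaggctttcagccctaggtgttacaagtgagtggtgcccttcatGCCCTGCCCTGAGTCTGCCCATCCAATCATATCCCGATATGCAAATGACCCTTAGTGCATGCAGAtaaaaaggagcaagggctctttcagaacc
Aldh1a7: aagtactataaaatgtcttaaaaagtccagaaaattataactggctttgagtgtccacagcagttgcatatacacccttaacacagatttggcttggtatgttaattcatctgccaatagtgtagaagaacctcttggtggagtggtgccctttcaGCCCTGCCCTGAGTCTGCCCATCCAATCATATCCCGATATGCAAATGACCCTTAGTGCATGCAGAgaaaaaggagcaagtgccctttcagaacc
The run was 65 bases long and stood at positions -94 to -30 in both genes. In a local alignment of the windows, 160 of 175 bases (91.4%) were identical. The run holds the letters CCAAT at position -72, which on either strand occur in 33.8% of the 32851 promoter windows of this length.

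The windows of *Adh1* (chr3:138277335-138277584) and *Adh7* (chr3:138217523-138217772), both on the plus strand, are shown because these neighbours were the members with the largest differences between HFD and LFD mice. The RefSeq start of *Adh1* lies inside the GENCODE span of the gene given above, so its window does not precede that span. Capitals mark matches on either strand to 5 short motifs, chosen after the sequences were seen. They were TATAAA of the TATA box, CCAAT of the CCAAT box, CACGTG of the E-box, AGGTCA of the nuclear receptor half-site, and TGTTCT of the glucocorticoid receptor half-site. No match overlaps another in these windows.
Adh1: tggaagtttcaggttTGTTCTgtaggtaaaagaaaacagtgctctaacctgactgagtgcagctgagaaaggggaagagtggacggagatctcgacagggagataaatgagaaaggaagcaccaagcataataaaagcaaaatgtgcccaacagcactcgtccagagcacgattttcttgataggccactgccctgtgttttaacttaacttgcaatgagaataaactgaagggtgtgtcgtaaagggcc
Adh7: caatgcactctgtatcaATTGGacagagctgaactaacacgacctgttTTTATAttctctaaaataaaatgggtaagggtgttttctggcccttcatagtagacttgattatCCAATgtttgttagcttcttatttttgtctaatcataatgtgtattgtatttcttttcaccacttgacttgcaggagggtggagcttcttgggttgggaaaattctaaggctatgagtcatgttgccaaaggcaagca
The *Adh1* window holds TGTTCT at position -235. The *Adh7* window holds CCAAT at -138 and, on the opposite strand, at -233, and TATAAA on the opposite strand at -202. No motif of the 5 matched both windows. On either strand, TATAAA occurs in 12.4% of all windows, the E-box in 6.02%, the nuclear receptor half-site in 14.0%, and TGTTCT in 16.1%.

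The libraries held between 34785979 and 67295963 counts on genes, and the members between 237 counts (*Adh7*) and 113019 counts (*Adh1*) in a mouse, so that the number of mice rather than depth limited the precision for most of them. No 2 libraries agreed within counting noise (lowest chi-square per degree of freedom 26.5 over 66 pairs). HFD replicate 1 stood apart from the other HFD mice. Its *Adh1* and *Adh7* levels were close to those of LFD mice, its *Aldh1a1* level lay within their range, and its summed steroidogenic markers were the lowest of the HFD mice, at 56561 CPM against 72597 to 98866 CPM. Values without it are given beside the comparisons with HFD mice. Because the mouse was singled out by the levels compared, they show how far 1 mouse moved a result and are not further support for a difference. All libraries held markers of steroidogenic cells at 42512 CPM or more in sum, led by *Star*, *Hsd3b1*, and *Cyp21a1*, and markers of the chromaffin cells of the medulla at 3107 CPM or more, led by *Chgb*, *Chga*, and *Scg2*. In RNA of a whole tissue, fewer cells of a type cannot be told apart from less RNA per cell.

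Levels of different genes were compared per kb of exon, counting every exon annotated for a gene. For *Adh5* this length was 5408 bases, beside 1604 in its main transcript, whereas for *Aldh1a7* both were 2066. The ranks below depend on this choice, and no other length was tried. In LFD mice, *Aldh1a1* was the most abundant member, at 296 ± 68.5 CPM per kb (SD, n = 4), followed by *Adh1* at 139 ± 24.7 CPM per kb, and the ranges of these 2 genes did not overlap. In HFD mice, *Adh1* came first, at 673 ± 351 CPM per kb, and *Aldh1a1* next, at 188 ± 58.6 CPM per kb, with overlapping ranges because *Adh1* was above *Aldh1a1* in 3 of 4 mice and below it in replicate 1. With icosapent ethyl, *Adh1* was at 552 ± 489 CPM per kb and *Aldh1a1* at 238 ± 76.5 CPM per kb, and *Adh1* was the higher of both in 2 of 4 mice. By this length, the order of the next members also differed. In CPM not divided by length, *Adh5* (203 to 244 CPM) lay above *Aldh1a7* (75.6 to 176 CPM) in LFD mice. *Aldh1a7* ranked 3 in LFD mice, at 61.4 ± 19.9 CPM per kb, above *Adh5* in 3 of 4 mice with overlapping ranges, but 4 in HFD mice, at 28.7 ± 6.94 CPM per kb, where *Adh5* lay above it without overlap at 49.2 ± 8.05 CPM per kb. *Aldh1a2* ranked 5 in every group and did not overlap with the member below it. *Rdh11*, *Dhrs3*, *Rdh10*, and *Adh7* took the last 4 places in every group. *Adh7* was the lowest member in LFD mice, at 2.18 ± 0.79 CPM per kb, with a range that overlapped that of *Rdh10*, the lowest member in both other groups.

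**Figure D1:**
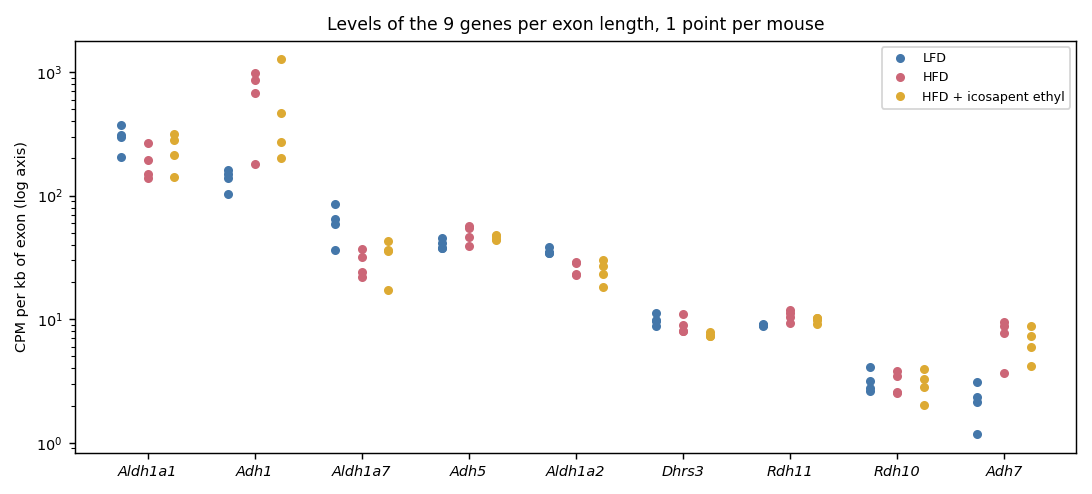
Levels of the 9 genes in CPM per kb of exon on a log axis, 1 point per mouse, 4 mice per group, with genes ordered by their LFD mean. *Aldh1a1* led in LFD mice at a mean of 296 CPM per kb and *Adh1* led in HFD mice at 673 CPM per kb, while *Adh7* and *Rdh10* lay at the bottom.

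Among the alcohol dehydrogenases, *Adh1* and *Adh7* were higher in every HFD mouse than in any LFD mouse. *Adh1* encodes the class I enzyme that oxidises ethanol and retinol. In LFD mice, its level was 232 CPM in replicate 2, 312 in replicate 5, 337 in replicate 6, and 359 in replicate 7. In HFD mice 1 to 4, it was 404, 2188, 1913, and 1504 CPM. The LFD mice lay close together, whereas HFD replicate 1 stood just above them and the other 3 HFD mice lay far above both. Mean levels were 309.9 ± 55.2 CPM (SD, n = 4) and 1502 ± 784 CPM, a log2 fold change of 2.27 (SE 0.44), or 2.59 (SE 0.18) without HFD replicate 1.

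*Adh7* encodes the class IV enzyme, an efficient retinol dehydrogenase best known from the stomach and other epithelia. LFD mice 2, 5, 6, and 7 had 4.46, 8.87, 8.06, and 11.7 CPM. HFD mice 1 to 4 had 14.0, 29.0, 33.7, and 36.1 CPM. The groups did not overlap, and HFD replicate 1 was again the lowest HFD mouse. *Adh7* rose by a log2 fold change of 1.77 (SE 0.34, with an adjusted p = 0.0476, from the quasi-likelihood test of edgeR, adjusted by the Benjamini-Hochberg method over 15909 genes), and by 1.99 (adjusted p = 0.0174) without HFD replicate 1. This call sat at the threshold. It was also made by DESeq2 (adjusted p = 6.76e-05). When each mouse was left out in turn, it was kept only without HFD replicate 1, with adjusted p of up to 0.140 in the other edgeR fits. Without HFD replicate 2, 3, or 4 or LFD replicate 5, 6, or 7, no gene of all tested passed, so those losses were not particular to *Adh7*. The call was also lost with DESeq2's size factors in edgeR (adjusted p = 0.0520) and without a filter on low counts (adjusted p = 0.0515).

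*Adh5* encodes the class III enzyme, which oxidises the glutathione adduct of formaldehyde and reduces S-nitrosoglutathione. LFD mice had between 203 and 244 CPM, and HFD mice 1 to 4 had 212, 250, 295, and 307 CPM. The groups overlapped through HFD replicate 1. The log2 fold change of 0.28 (SE 0.12) did not pass the threshold (adjusted p = 0.198 in edgeR), nor did that of 0.37 (SE 0.10, adjusted p = 0.0649) without HFD replicate 1.

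The 3 *Aldh1a* genes had lower means in HFD than in LFD mice, and none of them passed the threshold in all 8 mice. *Aldh1a1* encodes a cytosolic enzyme for retinaldehyde and other aldehydes. LFD mice 2, 5, 6, and 7 had 1015, 1522, 1483, and 1835 CPM. HFD mice 1 to 4 had 1326, 693, 739, and 958 CPM. HFD mice 2 to 4 lay below all LFD mice, and HFD replicate 1 lay among them. The log2 fold change was -0.66 (SE 0.23, adjusted p = 0.137 in edgeR), and -0.89 (SE 0.19, adjusted p = 0.0413) without HFD replicate 1.

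*Aldh1a7* encodes an enzyme closely related to ALDH1A1. LFD mice 2, 5, 6, and 7 had 75.6, 123, 133, and 176 CPM. HFD mice 1 to 4 had 75.9, 45.3, 49.7, and 66.4 CPM. The groups touched at 1 point, where HFD replicate 1 lay just above LFD replicate 2. The log2 fold change was -1.10 (SE 0.25, adjusted p = 0.0592 in edgeR), which passed by DESeq2 (adjusted p = 0.00203) and by edgeR without HFD replicate 1, where it was -1.24 (adjusted p = 0.0372).

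*Aldh1a2* encodes the main retinoic acid-forming enzyme of the embryo. LFD mice 2, 5, 6, and 7 had 77.4, 77.5, 79.6, and 86.8 CPM. HFD mice 1 to 4 had 65.4, 65.1, 52.8, and 51.8 CPM. All HFD mice lay below all LFD mice, and here HFD replicate 1 did not stand apart. The log2 fold change of -0.46 (SE 0.10) missed the threshold (adjusted p = 0.0579 in edgeR) and passed it by DESeq2 (adjusted p = 0.00377) and by edgeR without HFD replicate 1 (adjusted p = 0.0363).

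The 3 short-chain dehydrogenases and reductases differed little. *Rdh10*, which encodes a retinol dehydrogenase of membranes, had mean levels of 13.2 ± 2.77 (SD, n = 4) and 12.8 ± 2.65 CPM in LFD and HFD animals, and the log2 fold change was -0.05 (SE 0.20; edgeR, adjusted p = 0.900). *Rdh11*, whose product can reduce retinaldehyde, was within 30.6 to 31.6 CPM in LFD mice and at 32.2, 36.0, 38.8, and 41.2 CPM in HFD mice 1 to 4. All HFD mice lay above all LFD mice, but the log2 fold change of 0.24 (SE 0.09) did not pass the threshold (adjusted p = 0.159). *Dhrs3*, whose product reduces retinaldehyde to retinol, overlapped between LFD mice (25.6 to 32.8 CPM) and HFD mice (23.5 to 32.0 CPM), with a log2 fold change of -0.14 (SE 0.13, with an adjusted p = 0.531).

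**Figure D2:**
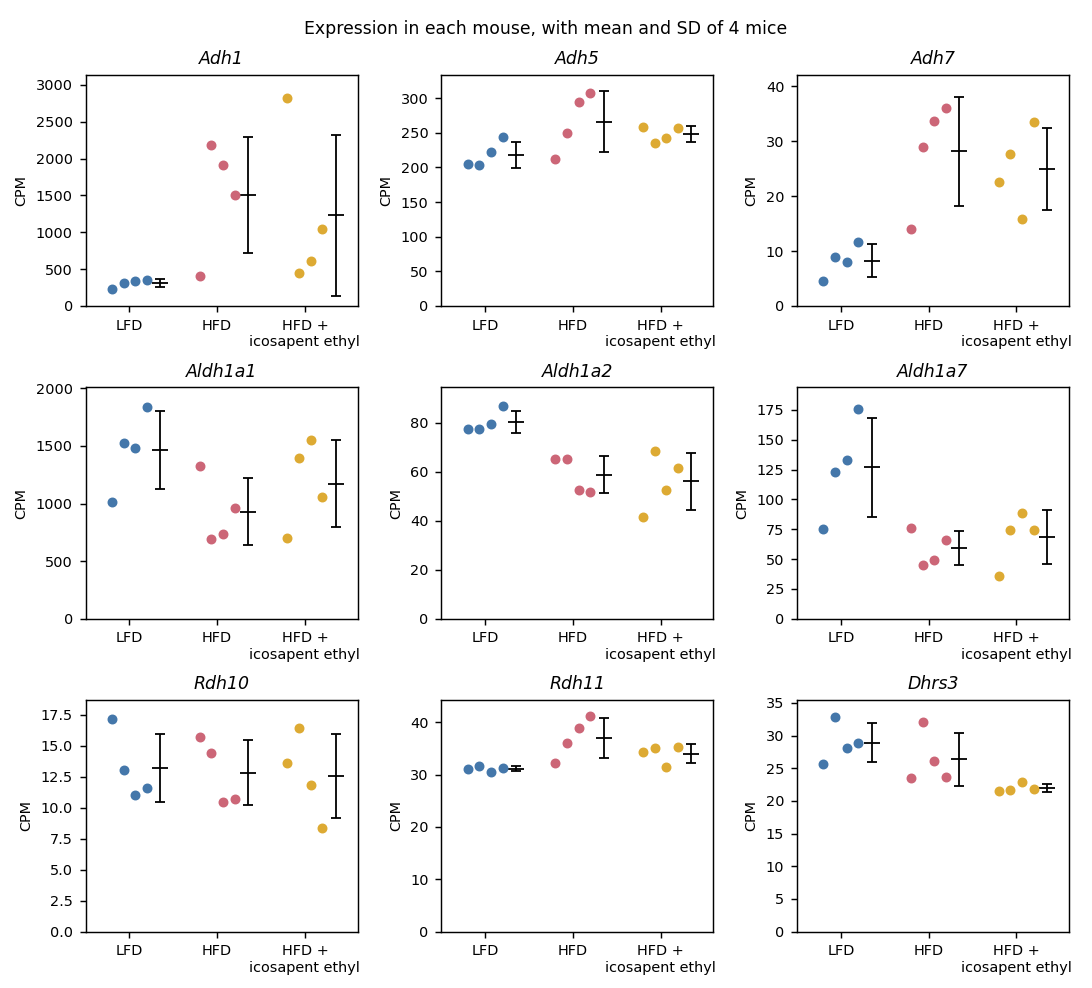
Expression of the 9 genes in CPM (linear axes from 0), 1 point per mouse in the order of the replicate numbers, with the mean and SD of 4 mice per group beside the points. HFD replicate 1, the first red point, lay near the LFD mice for *Adh1* and *Aldh1a1*, and all HFD mice lay below all LFD mice for *Aldh1a2*.

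Of the 8 members other than *Adh1*, 1 passed the threshold in HFD versus LFD mice, against a background of 1.45% of the 15909 genes tested (0.974% higher and 0.471% lower). 6 of the 8 had an unadjusted p below 0.05 (background 24.8%), and 3 passed by DESeq2 (background 12.9%), namely *Adh7*, *Aldh1a2*, and *Aldh1a7*. *Adh7* and *Rdh11* lay higher in every HFD mouse than in any LFD mouse (background 7.71%), and *Aldh1a2* lay lower (background 5.82%), which made 3 of 8 without overlap (background 13.5%). Without HFD replicate 1, 4 of the 8 passed by edgeR, *Adh7* as higher and the 3 *Aldh1a* genes as lower (background 5.7%). Without LFD replicate 2, 1 of the 8 passed, *Aldh1a7*, and 78 of all genes tested did. Leaving out any other mouse gave 0 members past the threshold, but also 0 of all genes tested. Those fits therefore say nothing particular about the members. The median log2 fold change of the 8 was -0.10, beside -0.01 over all genes tested. The members were chosen with earlier results of these data known. Their shares beside the background, here and below, are therefore a description and not independent support.

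Icosapent ethyl–treated HFD mice were compared with the same LFD mice, so that both comparisons share their controls. *Adh1* was at 2829, 448, 613, and 1044 CPM in treated mice 1 to 4, above the LFD range in each. The spread was wide, because treated replicate 1 had the highest level of all 12 mice and replicate 2 was close to the LFD mice. The log2 fold change was 1.99 (SE 0.53), and 1.18 without treated replicate 1. *Adh7* was at 22.5, 27.7, 15.9, and 33.4 CPM, also above every LFD mouse, and the log2 fold change was 1.59 (SE 0.31; edgeR, adjusted p = 0.184). *Aldh1a2*, at 41.6, 68.6, 52.6, and 61.4 CPM, lay below every LFD mouse, and the log2 fold change was -0.52 (SE 0.14; edgeR, adjusted p = 0.232). *Dhrs3* also lay below every LFD mouse, at 21.6, 21.6, 22.9, and 21.8 CPM, and the log2 fold change was -0.39 (SE 0.10; edgeR, adjusted p = 0.225).

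In the same comparison, *Aldh1a7* had a log2 fold change of -0.89 (SE 0.31; edgeR, adjusted p = 0.271) and *Aldh1a1* of -0.32 (SE 0.25, adjusted p = 0.581). Values for *Adh5* and *Rdh11* were 0.19 (SE 0.08, adjusted p = 0.366) and 0.13 (SE 0.08, adjusted p = 0.497), and *Rdh10* was at -0.07 (SE 0.23, adjusted p = 0.902). No member passed, as did none of the 15935 genes tested (background 0%), although 2225 genes (14%) and 4 of the 8 members had an unadjusted p below 0.05. By DESeq2, *Adh7* (adjusted p = 0.000214) and *Dhrs3* (adjusted p = 0.0155) passed, against a background of 2.99%. Of the 8 members, 3 did not overlap (background 7.73%), of which 1 lay higher (background 4.04%) and 2 lay lower (background 3.69%).

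Between icosapent ethyl–treated and untreated HFD mice, no member passed the threshold. *Adh1* had a log2 fold change of -0.28 (SE 0.64), and -0.60 (SE 0.58) without HFD replicate 1 or -1.10 without treated replicate 1. *Aldh1a1* was at 699, 1392, 1549, and 1054 CPM in treated mice 1 to 4, which overlaps with the HFD mice (693 to 1326 CPM), with a log2 fold change of 0.34 (SE 0.28). *Aldh1a7* was at 35.9, 74.3, 88.9, and 74.8 CPM, with a log2 fold change of 0.21 (SE 0.27). *Dhrs3* was the only member without overlap, with all treated mice (at most 22.9 CPM) below all HFD mice (at least 23.5 CPM), which made 1 of 8 without overlap (background 1.14%), 1 of them lower (background 0.66%) and 0 higher (background 0.484%), and its log2 fold change was -0.26 (SE 0.12). By edgeR, 0 of the 8 members and 0 of 15913 genes (background 0%) passed, with adjusted p near the upper limit for each of the 8 (0.9997 for *Dhrs3*). At an unadjusted p below 0.05 there were 0 members and 221 genes (1.39%), and by DESeq2 0 members and 6 genes (0.0377%).

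**Figure D3:**
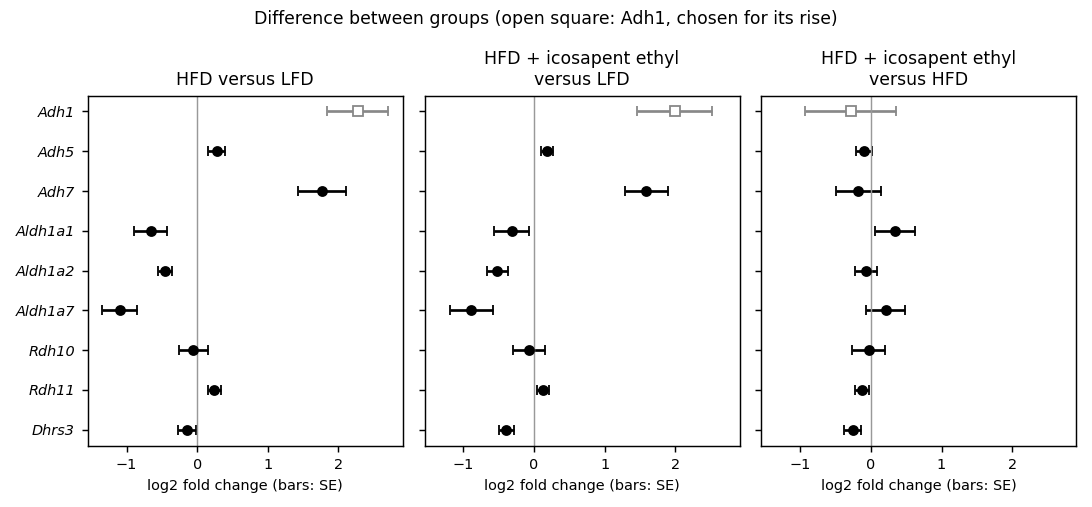
Log2 fold changes of the 9 genes in the 3 comparisons, with bars for the SE from edgeR (4 mice per group). *Adh1*, drawn as an open square, was chosen for its rise and has no test. *Adh7* lay at 1.77 in HFD versus LFD mice, the 3 *Aldh1a* genes lay to the left of 0 in both comparisons with LFD mice, and in treated versus untreated HFD mice the members lay between -0.28 and 0.34.

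*Aldh1a1* and *Aldh1a7* were examined as a pair, because reads of near-identical genes can be lost or misassigned in counting. Their transcripts were 89.6% identical over 2050 aligned bases, compared with 68.1% for *Aldh1a1* and *Aldh1a2*, 67.8% for *Adh1* and *Adh7*, and 66.1% for *Adh1* and *Adh5*. Of all 75-base stretches, the length of a read, 50 of 4934 in *Aldh1a1* (1.01%) and 50 of 1992 in *Aldh1a7* (2.51%) occurred in both genes, and the other 7 members shared none with any gene. *Aldh1a7* counts per 100 *Aldh1a1* counts were then followed over the mice. This ratio was chosen after the data were seen, and it compares mice rather than the levels of the genes, whose lengths differ. It was 7.45, 8.08, 8.97, and 9.59 in LFD mice, in ascending order, and 5.72, 6.54, 6.72, and 6.93 in HFD mice. All HFD mice lay below all LFD mice, including HFD replicate 1. Means were 8.52 ± 0.94 (SD, n = 4) and 6.48 ± 0.53, and the two-sided exact permutation p was 0.0286, the smallest that 4 against 4 mice allow (0.0429 adjusted over 3 comparisons). With icosapent ethyl, the ratio was 5.14, 5.34, 5.74, and 7.09, with a mean of 5.83 ± 0.88, again below all LFD mice (exact permutation p = 0.0286, adjusted 0.0429). Treated and HFD mice overlapped, and the difference between their means did not pass the threshold (exact permutation p = 0.286). The difference between HFD and LFD mice missed the threshold when any HFD mouse was left out (exact permutation p = 0.0571). So did that between treated and LFD mice without treated replicate 1 or LFD replicate 5, 6, or 7.

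Among the 8 mice fed HFD with or without icosapent ethyl, those with more *Adh1* had less *Aldh1a1* and *Aldh1a7*. This was noticed in the data, pools both diets, and rests on the levels of *Adh1*, so it is given as a description with no test. On log2(CPM + 1), *Aldh1a1* had a Pearson's r of -0.945 and a Spearman's rho of -0.881 with *Adh1*, and *Aldh1a7* an r of -0.864 and a rho of -0.881 (n = 8 mice). Without the 2 mice farthest from the median of *Adh1*, HFD replicate 1 and treated replicate 2, r was -0.975 and -0.964. Within the HFD mice, *Aldh1a1* was lower in each mouse with more *Adh1*, from 1326 CPM of *Aldh1a1* in replicate 1 to 693 CPM in replicate 2. Within the treated mice, replicates 3, 4, and 1 kept this order and replicate 2 did not. The LFD mice ran otherwise, since LFD replicate 2 had the lowest *Adh1* and also the lowest *Aldh1a1* of its group. For the other 6 members, r with *Adh1* was 0.674 for *Adh5*, 0.544 for *Adh7*, 0.531 for *Rdh11*, 0.406 for *Dhrs3*, -0.327 for *Rdh10*, and -0.613 for *Aldh1a2*. Summed steroidogenic markers were 56561, 72597, 98866, and 95204 CPM in HFD mice 1 to 4 and 73059, 59104, 75381, and 92109 CPM in treated mice 1 to 4. The mice with the lowest sums, HFD replicate 1 and treated replicate 2, were those with the least *Adh1*, but treated replicate 1, with the most *Adh1*, was not the highest. The part of these markers in the relation was not tested.

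**Figure D4:**
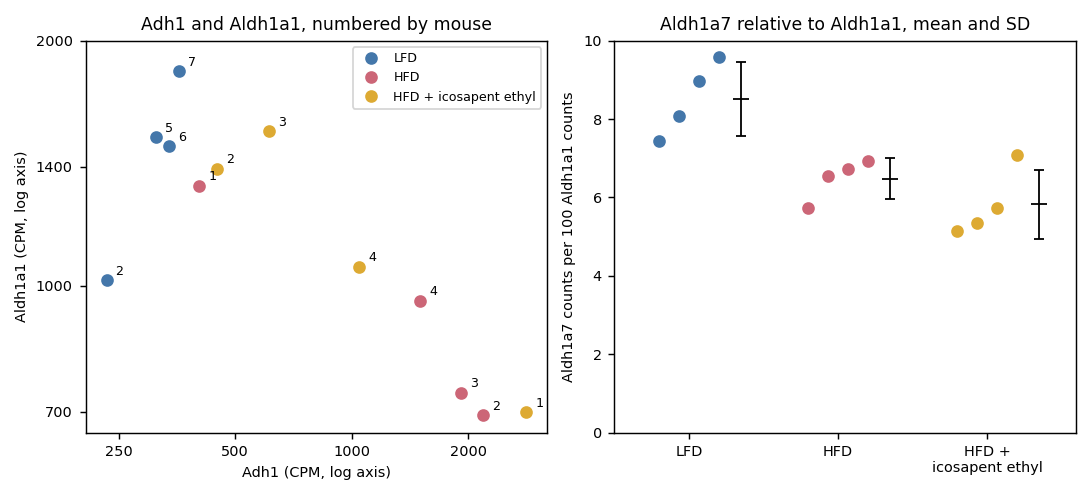
Left, *Adh1* and *Aldh1a1* in CPM (log axes), 1 point per mouse, with the replicate number beside it. The 8 mice on HFD ran from high *Aldh1a1* at low *Adh1* to low *Aldh1a1* at high *Adh1* (r = -0.945 on the log2 scale). Right, *Aldh1a7* counts per 100 *Aldh1a1* counts in each mouse, in ascending order within a group, with mean and SD, where the 4 LFD mice at 7.45 or more lay above the other 8 mice.

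The genes whose profile over the 12 mice was most like that of *Adh1* were found by the root mean square difference of z-scored log2(CPM + 1) values among 13458 genes. The nearest was *Vnn3*, at 0.130, and the nearest 5 also held *Nppb* at 0.265, *Dnmt3l* at 0.275, and *Mmel1* at 0.289. *Vnn3*, a member of the vanin gene family, was at 0.86 ± 0.40 CPM (SD, n = 4) in LFD, 6.95 ± 4.01 CPM in HFD, and 5.22 ± 5.15 CPM in treated mice. Like *Adh1*, it was low in HFD replicate 1 (1.11 CPM) and treated replicate 2 (1.63 CPM) and highest in treated replicate 1 (12.6 CPM). Because *Vnn3* was selected by its profile over these same mice, the likeness follows from the selection and is only a description. Among the members, *Adh7* was 411th and *Adh5* 483rd in likeness to *Adh1*, with 96.9% and 96.4% of the genes farther away. *Rdh11*, on chromosome 12, was 788th (94.1% farther), *Dhrs3* 8646th (35.8%), and *Rdh10* 9473rd (29.6%). *Aldh1a7*, *Aldh1a2*, and *Aldh1a1* were at 13248th, 13257th, and 13305th, near the opposite end.

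Other genes of the pathway were taken from 6 lists, also chosen with earlier results of these data known. Their shares beside the background are likewise a description. In HFD versus LFD mice, none of them passed the threshold by edgeR in all 8 mice, near the background of 1.45%. None passed in either comparison with treated mice, where no gene of all tested passed (background 0%). Of 13 genes for the uptake, binding, and storage of retinoids, 8 were expressed enough to be tested, and they had a median log2 fold change of -0.81, beside -0.01 over all genes. 6 of these 8 had an unadjusted p below 0.05 (background 24.8%) and 2 passed by DESeq2 (background 12.9%). Chromaffin markers were lower in HFD mice as well (median log2 fold change -1.28), and their part in the median of this list was not tested. *Retsat*, whose product saturates retinol, had a log2 fold change of 0.37 (SE 0.12; edgeR, adjusted p = 0.108).

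Of 17 other retinol and retinaldehyde enzymes, 7 were tested, with a median log2 fold change of 0.03, 3 at an unadjusted p below 0.05 (background 24.8%), and 2 past the threshold by DESeq2 (background 12.9%). *Rdh1*, which encodes a retinol dehydrogenase, had 3.97, 5.62, 4.63, and 6.61 CPM in LFD and 8.98, 8.30, 9.30, and 10.8 CPM in HFD mice. The groups did not overlap, and its log2 fold change was 0.84 (SE 0.18, adjusted p = 0.0567 in edgeR). *Rdh13*, whose product is a retinaldehyde reductase of mitochondria, did not overlap either, with a log2 fold change of 0.43 (SE 0.13, with an adjusted p = 0.0988). Of the 7 tested, 2 thus lay higher without overlap (background 7.71%) and 0 lower (background 5.82%). In treated versus LFD mice, *Rdh1* and *Rdh13* again lay higher without overlap (2 of 7, background 4.04%). Their log2 fold changes were 1.15 (SE 0.26, adjusted p = 0.187 in edgeR) for *Rdh1* and 0.45 (SE 0.15, adjusted p = 0.267) for *Rdh13*.

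Downstream of retinoic acid, 6 of 9 receptor and breakdown genes were tested in HFD versus LFD mice, at a median log2 fold change of 0.11. Of these, 0 had an unadjusted p below 0.05 (background 24.8%) and 0 passed by DESeq2 (background 12.9%). With only 6 genes tested, these counts do not set the list apart from the background. *Cyp26b1*, which encodes an enzyme that degrades retinoic acid, had 12.4, 48.0, 16.5, and 9.20 CPM in LFD mice and 18.4, 82.2, 5.43, and 4.91 CPM in HFD mice. A single mouse in each group was far above the others, and the log2 fold change of 0.36 (SE 0.91, adjusted p = 0.839 in edgeR) became -1.17 without HFD replicate 2. In treated mice, *Cyp26b1* was at 8.04, 8.04, 7.10, and 4.94 CPM, below every LFD mouse, as 1 of 7 tested in this list (background 3.69% lower). The log2 fold change was -1.61 (SE 0.49, adjusted p = 0.255 in edgeR), or -0.85 without LFD replicate 5, and passed by DESeq2 (adjusted p = 0.0263). *Rxrg*, a retinoid X receptor gene, was at 0.41 CPM or less in the mice of all groups, was not tested in HFD versus LFD mice, and had a log2 fold change of -0.87 (SE 0.43; edgeR, adjusted p = 0.397) in treated versus LFD mice.

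Of 9 genes known to be induced by retinoic acid, with *Cyp26b1* among them, 6 were tested in HFD versus LFD mice, at a median log2 fold change of 0.12, 2 at an unadjusted p below 0.05 (background 24.8%), and 1 past the threshold by DESeq2 (background 12.9%). In treated versus LFD mice, the median was -0.49, beside 0.00 over all genes, with 3 of 6 at an unadjusted p below 0.05 (background 14%), 2 past the threshold by DESeq2 (background 2.99%), and 3 lower without overlap (background 3.69%). *Tgm2*, which encodes a transglutaminase, had 155, 174, 130, and 170 CPM in LFD mice and 111, 104, 106, and 107 CPM in treated mice 1 to 4. The treated mice lay close together and below all LFD mice, and the log2 fold change was -0.56 (SE 0.10; edgeR, adjusted p = 0.153, adjusted p = 0.000538 by DESeq2). In HFD mice, *Tgm2* overlapped with the LFD range, and the log2 fold change was -0.39 (SE 0.13; edgeR, adjusted p = 0.135).

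Of 20 other alcohol and aldehyde dehydrogenase genes, 14 were tested, with a median log2 fold change of 0.18 and 12 above 0. Of these, 2 were at an unadjusted p below 0.05 (background 24.8%) and 1 passed by DESeq2 (background 12.9%), both shares below the background. Without overlap, 3 of the 14 lay higher (background 7.71%) and 0 lower (background 5.82%). In treated versus LFD mice, 3 of 14 lay higher without overlap (background 4.04%). *Aldh3b1*, whose product oxidises fatty aldehydes, had 46.3, 45.3, 48.3, and 53.1 CPM in LFD, 58.2, 60.8, 66.8, and 69.0 CPM in HFD, and 64.2, 65.0, 76.0, and 67.1 CPM in treated mice. Neither group on HFD overlapped with the LFD mice. The log2 fold changes were 0.39 (SE 0.08, adjusted p = 0.0553 in edgeR) in HFD and 0.50 (SE 0.09, adjusted p = 0.169) in treated mice, and the first passed without HFD replicate 1 (adjusted p = 0.0368). *Aldh9a1*, which encodes an aminobutyraldehyde dehydrogenase, also lay higher without overlap in HFD mice, and the log2 fold change was 0.27 (SE 0.09; edgeR, adjusted p = 0.110).

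Of 21 genes listed as aldo-keto and carbonyl reductases, 17 were tested in HFD versus LFD mice, at a median log2 fold change of 0.11. Of these, 7 were at an unadjusted p below 0.05 (background 24.8%). By DESeq2, 2 were past the threshold, a share near the background of 12.9%. *Akr1b3*, the aldose reductase gene, had 269, 287, 321, and 355 CPM in LFD mice and 325, 407, 488, and 492 CPM in HFD mice. HFD replicate 1 lay within the LFD range. Its log2 fold change was 0.47 (SE 0.14, adjusted p = 0.102 in edgeR) and, without HFD replicate 1, 0.58 (SE 0.11, adjusted p = 0.0342). *Cbr1*, a carbonyl reductase gene, lay lower in every HFD mouse, as 1 of the 17 without overlap (background 5.82% lower). Its log2 fold change was -0.30 (SE 0.09, adjusted p = 0.102 in edgeR). Without HFD replicate 1, *Esd* passed too, at a log2 fold change of 0.54 (SE 0.09; edgeR, adjusted p = 0.0264). *Esd* was counted in this list, and among its 7 genes at an unadjusted p below 0.05, but does not encode a reductase. It encodes S-formylglutathione hydrolase, which acts on the product of the *Adh5* enzyme.

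**Figure D5:**
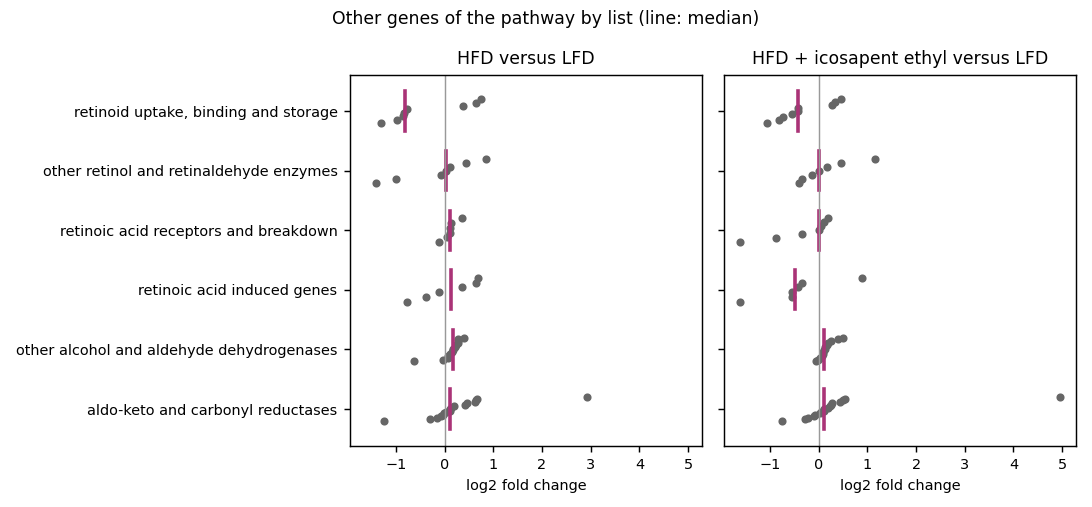
Log2 fold changes of the tested genes of the 6 lists, 1 point per gene, with the median of each list as a line. Retinoid uptake, binding, and storage genes had the lowest median in HFD versus LFD mice, at -0.81. The point farthest to the right is *Akr1d1*, which had 409 counts in treated replicate 2 and 17 or fewer in each LFD mouse and did not pass the threshold in either comparison.

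Some markers of other cell types differed between the diets. In HFD versus LFD mice, all 12 chromaffin markers had log2 fold changes below 0, with a median of -1.28. Of these markers, 0 were past the threshold, near the background of 1.45%. Their sums ran from 6437 to 22692 CPM in LFD, 3107 to 10036 CPM in HFD, and 5558 to 11031 CPM in treated mice. All 10 steroidogenic markers were above 0, with a median of 0.50 and 0 past the threshold, again near the background of 1.45%. Their sums ran from 42512 to 71674 CPM in LFD, 56561 to 98866 CPM in HFD, and 59104 to 92109 CPM in treated mice. Of the 10 macrophage markers, 4 were past the threshold as lower (*Cd68*, *Lyz2*, *C1qc*, and *C1qa*), against a background of 0.471%. Their sums did not overlap between LFD (729 to 1095 CPM) and HFD mice (512 to 619 CPM), with treated mice at 561 to 703 CPM. Of the 12 adipocyte markers, 9 were above 0 and 3 below, and 2 were past the threshold as higher (*Plin4* and *Lipe*), against a background of 0.974%. Their sums were 308 to 509 CPM in LFD, 499 to 619 CPM in HFD, and 414 to 606 CPM in treated mice.

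Markers of the capsule and of fibroblasts summed to 433 to 770 CPM in LFD, 327 to 464 CPM in HFD, and 364 to 493 CPM in treated mice, and 9 of 10 had log2 fold changes below 0 in HFD versus LFD mice. Mesothelial markers summed to 10.5 to 18.4 CPM, 14.8 to 22.0 CPM, and 15.8 to 40.4 CPM in the same order. The highest sum was in treated replicate 1, the mouse with the most *Adh1*. The next highest, 32.9 CPM, was in treated replicate 2, which had the least *Adh1* of the treated mice. Of the 6 mesothelial markers tested in HFD versus LFD mice, 1 was above 0 and 5 were below, at a median log2 fold change of -0.31, in contrast to the sums. Endothelial sums overlapped between the groups (1107 to 1662, 1166 to 1517, and 976 to 1391 CPM), as did lymphocyte sums (5.85 to 6.37, 3.91 to 7.05, and 5.30 to 9.20 CPM). None of the capsule, mesothelial, endothelial, or lymphocyte markers was past the threshold, near the background of 1.45% in HFD versus LFD mice. No marker of any list was at 0 in all mice. The part of these cell types in the differences of the members and of the listed genes was not tested.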

How the data were processed

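RNA of the adrenal cortex of 12 mice was sequenced, 1 library per mouse. The authors trimmed reads with cutadapt, aligned them to GRCm38 with STAR, and counted them per GENCODE M12 gene with HTSeq 0.6.1p1 in reverse-strand mode at a minimum mapping quality of 20. They deposited raw read counts per gene, without normalization. Reads that map to several genes are left out by such counting. Symbols and coordinates were found for 49326 of 49585 genes in GENCODE M21. Groups follow the labels, and the 9 genes and all lists were chosen with earlier results of these data known.

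The quasi-likelihood test of edgeR 4.0.16 (R 4.3.3) was fitted robustly to counts normalized by TMM, after removal of genes under the filterByExpr minimum count of 10, in the mice of the 2 groups compared, without covariates. Adjusted p-values (Benjamini-Hochberg) cover all genes tested, with a threshold of 0.05. CPM in the text use TMM factors over all 12 mice (0.883 to 1.14). Alternatives were DESeq2 1.42.0, DESeq2's size factors, no filter, all 12 mice in 1 fit, leaving out each mouse, *Aldh1a1* and *Aldh1a7* counts summed, and the replicate number as a block. The procedure was tested on simulated data. From each list, the 2 genes with the lowest adjusted p in either comparison with LFD mice were named where fewer than 2 passed, and *Esd* and *Akr1d1* were named after their values were seen. Some genes that the rules select are not reported here.

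HFD and treated mice are both numbered 1 to 4. Deviations from the group means of same-numbered mice correlated at 0.310, 0.146, 0.392, and 0.760, but the own number was the best partner in 1 of 4, and neither labels nor methods state a pairing. LFD mice are numbered 2, 5, 6, and 7, so no pairing was used for them.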

Additional observations from a re-analysis of the deposited data

How the results depend on the processing

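The calls rested on few mice. In HFD versus LFD mice, 230 genes passed by edgeR, against 2049 by DESeq2, 556 with all 12 mice in 1 fit, and 0 to 918 when each mouse was left out. The members other than *Adh1* past the threshold were 1, against 3 by DESeq2, 0 with DESeq2's size factors or without a filter, and 0 to 4 when each mouse was left out. For treated versus LFD mice, 0 genes passed, against 477 by DESeq2, 2 with all 12 mice in 1 fit, and 0 to 1 when each mouse was left out, and 0 members, against 2 by DESeq2. For treated versus HFD mice, 0 genes passed, against 6 by DESeq2. With the replicate number as a block, 0 genes and 0 members passed, and it changed no call. The causes of these differences were not tested. When each mouse was left out, the sign changed for *Rdh10* (-0.17 to 0.11 in HFD versus LFD, -0.23 to 0.080 in treated versus LFD, and -0.19 to 0.12 in treated versus HFD mice), for *Cyp26b1* (-1.17 to 1.12 in HFD versus LFD mice), and for *Aldh1a2* (-0.18 to 0.051 in treated versus HFD mice). The correlation of *Adh1* with *Rdh10* turned to 0.471 without the 2 farthest mice. With *Aldh1a1* and *Aldh1a7* counts summed, edgeR gave -0.69 on the log2 scale (adjusted p = 0.127) in HFD versus LFD mice. Leaving out mice and correlations without the 2 farthest mice were added for the ratio and the relations after the data were seen. Depth limited *Rxrg* and other genes with few counts.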
